A study of Caenorhabditis elegans with 12 samples.

Results

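Genes known only by the sequence name of their genomic clone, with no given gene name, were selected here for one pattern in the wild-type cultures of *Caenorhabditis elegans*: signal that was high in cultures 1 and 3 and low in culture 2. A probe set was a member when the platform annotation gave it 1 gene, that gene had a sequence name without a hyphen, and the sum of its polysomal (P) and nonpolysomal (NP) signals reached 1000 and at least 3 times the sum of wild-type culture 2 in both wild-type cultures 1 and 3. The rule found 96 probe sets for 93 genes, of 4113 single-gene probe sets with a sequence name and 13333 probe sets in all. Of the 1347 sequence-name probe sets that reached the minimum sum in both cultures, 7.13% were members. The wild-type sums therefore chose the members, and they are given below as a description with no test.

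The study asked which mRNAs depend on IFE-1, one of the worm's forms of the cap-binding factor eIF4E, for their place on polysomes. Mixed stages of ife-1(bn127) worms, a mutant of the gene, and of wild-type N2 worms, both including eggs and larvae, were grown for 3 days at 20 °C on plates with OP50 bacteria and egg yolk. Lysates of 3 separately harvested cultures per genotype were resolved on gradients of 10 to 45% sucrose, and RNA heavier than 80S (P) and lighter than 80S (NP) went onto an Affymetrix array each, which gave 12 arrays. The outline of the procedure says that samples of the 2 genotypes were paired in 3 growth sets. The targeted gene checked the labels: ife-1 gave sums of 167.9, 282.1 and 177.5 in the ife-1 cultures, against 8855, 7721 and 10534 in the wild-type cultures. Array medians ranged from 367.75 to 430.0 signal units.

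In *C. elegans* hermaphrodites, sperm are made late in larval life before the gonad turns to oocytes, so that the sperm content of a mixed culture depends on the stages it holds. Sperm are built from a small set of very abundant products, first among them the major sperm proteins, which form the cytoskeleton that drives the crawling of the cell and also signal to oocytes. Protein kinases and phosphatases are numerous among sperm-enriched genes, and the X chromosome holds few genes expressed during sperm formation. IFE-1 is a germline eIF4E found on P granules, and its loss is known to impair sperm formation. In whole-worm RNA, fewer sperm-forming cells and less RNA in each of them cannot be told apart.

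The members carried little annotation. The workbook described a function or domain for 21 of the 96 probe sets. It named 5 as major sperm proteins or their like, 7 probe sets of 6 genes as protein kinases, 2 as phosphatases and 2 as mitochondrial carriers. These numbers stand without matching counts over all probe sets, and nothing is read from them. Of the 95 probe sets matched to RefSeq, 93 were annotated as protein coding and 2, ZK546.3 and C04F12.6, as pseudogenes. B0222.10 was not matched. The 93 genes gave more than 1 member probe set in 3 cases (C34D4.3, W02B12.12 and Y51A2D.8). By the suffix of their names, 29 probe sets may share probes with similar transcripts and 14 may bind other transcripts, so that the signal of those can come from several related genes.

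The median member sum was 582.0, 737.5 and 586.3 in ife-1 cultures 1, 2 and 3, against 1828, 340.1 and 1891 in wild-type cultures 1, 2 and 3. Every one of the 96 members lay lower in all 3 ife-1 cultures than in wild-type cultures 1 and 3, which 34.2% of all probe sets did. In 79 members all ife-1 cultures lay above wild-type culture 2, as in 42.1% of all probe sets, and in 3 they all lay below it. The wild-type side of both counts was used by the rule, and nothing is read from them. The ife-1 cultures, which the rule did not use, were close to each other: the highest was a median of 1.35 times the lowest, against 1.29 times over all probe sets, and at most 2.25 times. The highest of them was culture 2 in 72 members, culture 3 in 15 and culture 1 in 9, whereas culture 2 was the highest for 48.1% of all probe sets.

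**Figure D1:**
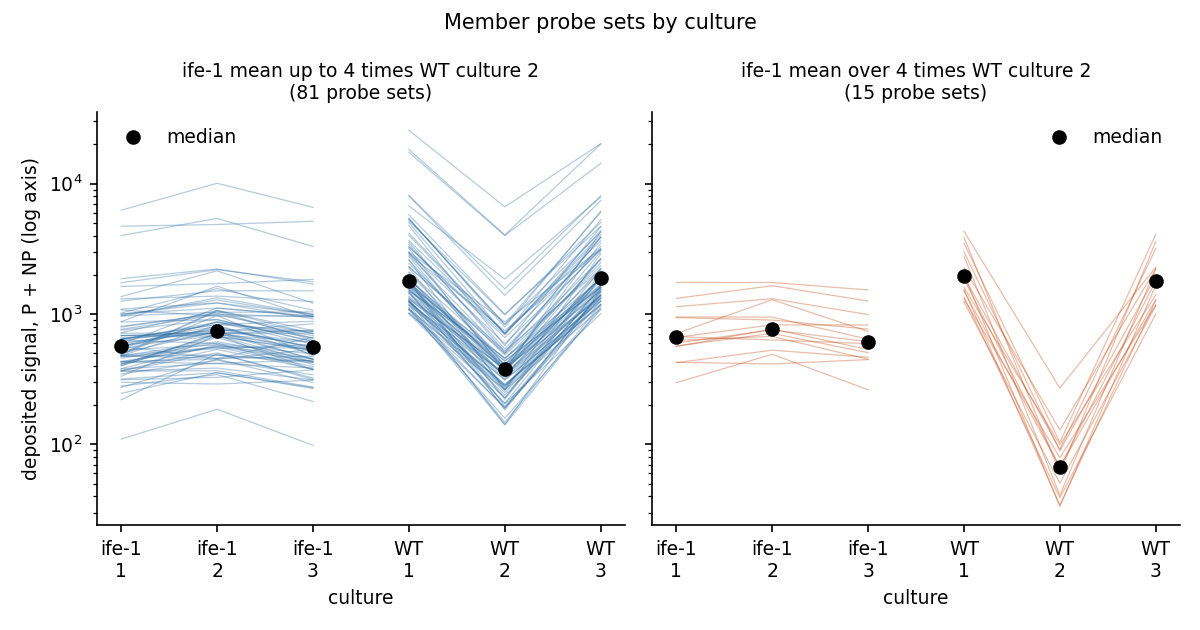
Deposited signal summed over P and NP (log axis) for each member probe set in the 3 ife-1 and 3 wild-type cultures, with black points at the median. The 81 probe sets on the left have ife-1 means of 0.623 to 3.74 times wild-type culture 2, with every ife-1 culture above it in 64 of them, and the 15 on the right have ife-1 means of 4.32 to 19.6 times.

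The pattern was one of a single culture. With the same thresholds turned to each culture of a genotype in turn, wild-type culture 2 was low against the other 2 cultures for 96 sequence-name probe sets and high for 1. Wild-type culture 3 was low for 1 and wild-type culture 1 for none. Among the ife-1 cultures, culture 2 was low for 1 and high for 2, and the other 2 gave none. Over all probe sets, whatever their name, wild-type culture 2 was low for 219.

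The ratio of the lower of wild-type cultures 1 and 3 to culture 2 ran from 3.05 to 59.5, with a median of 5.12. F09C6.10 had the largest ratio, 59.5, with sums of 3876, 60.4 and 3593 in wild-type cultures 1 to 3. It was followed by ZK1290.11 at 54.4, K12H6.4 at 49.9, K03D3.5 at 37.01 and C48B4.12 at 33.7. Just inside the threshold stood F58A6.9 at 3.05, K05F1.9 at 3.26, Y1A5A.1 at 3.39, Y43C5B.3 at 3.41 and F27C1.1 at 3.44. Just outside it stood C04F12.7 at 2.87, ZK84.2 at 2.86 and Y59H11AM.1 at 2.80. A ratio of 3 or more was also met by the P signals alone in 84 members and by the NP signals alone in 89.

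The label of the selection, genes that track the sperm content of the cultures, was set beside marker genes. Summed signal of 23 major sperm protein genes was 306000, 357000 and 320000 in the ife-1 cultures, against 804000, 298000 and 722000 in the wild-type cultures. Summed signal of 31 other sperm genes was 36000, 41900 and 34900 in the ife-1 cultures, against 97900, 26900 and 103000 in the wild-type cultures. Both lists were thus low in wild-type culture 2, as the members were by selection, and their ife-1 mean stood at 1.10 and 1.40 times that culture. The rule's thresholds, applied to these genes whatever their name, were met by 9 of the 23 major sperm protein genes and 15 of the 31 others. Of given-name probe sets that reached the minimum sum, 2.2% met them, while the lists count genes whether or not they reached it. The lists were chosen with earlier results of these data known, and the major sperm protein genes are near copies of each other. These counts are therefore a description and no test of the label. The gene with the highest mean signal of the second list, swm-1, did not share the dip. It gave 6321.5, 7101.9 and 8219.9 in wild-type cultures 1 to 3.

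The summed marker lists of other cells and stages did not share the dip. Summed oocyte and maternal signal was 363000, 313000 and 367000 in the ife-1 cultures, against 213000, 204000 and 232000 in the wild-type cultures. Intestinal genes gave 385000, 407000 and 356000 in the ife-1 cultures, against 385000, 427000 and 389000 in the wild-type cultures. Muscle, neuron and molting lists were lower in every ife-1 culture than in every wild-type culture, and meiotic genes were higher. For meiotic, muscle, neuron, molting, intestinal and embryonic genes, the lower of wild-type cultures 1 and 3 stood at 0.849 to 1.04 times culture 2. None of the genes measured in these 7 lists met the thresholds of the rule. Outside the lists, some cuticle genes did: 5 col genes, which encode cuticle collagens, and the cuticle gene rol-1, all picked out after their values were seen. For example, col-60 gave 994.6, 1345 and 764.3 in the ife-1 cultures, against 5532, 1341 and 5643 in the wild-type cultures. The part of culture composition in the members' values was not tested.

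**Figure D2:**
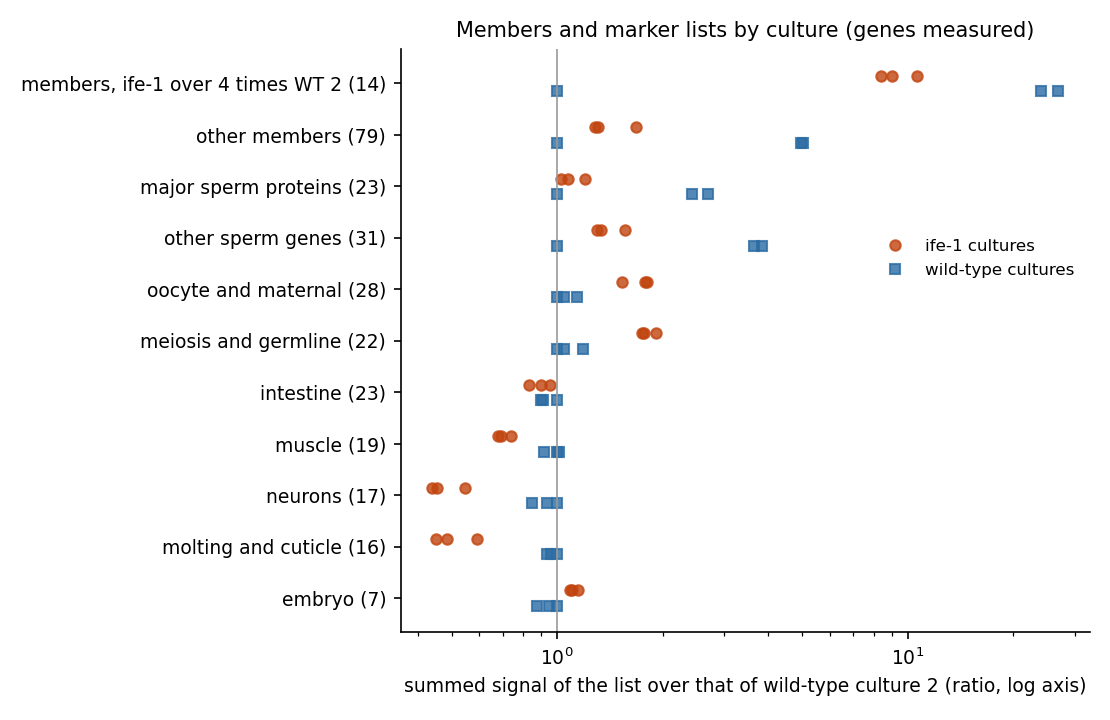
Summed deposited signal of the members and of marker lists in each culture, divided by that of wild-type culture 2 (log axis); circles are ife-1 cultures, squares wild-type cultures, and the number of genes measured is in brackets. The 79 member genes in the second row lie close to the sperm lists in the ife-1 cultures, and the 14 in the first row average 9.36 times wild-type culture 2.

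The distance between the ife-1 cultures and wild-type culture 2 varied among the members. The ife-1 mean was a median of 1.73 times the sum of wild-type culture 2 and ran from 0.623 to 19.6 times. In 81 probe sets for 79 genes it was at most 3.74 times, with a median of 1.63. The other 15 probe sets, for 14 genes, ran from 4.32 to 19.6 times. The division at 4 times was chosen after the values were seen, so that the counts on either side of it are a description with no test. Among genes of the sperm families msp, ssp, ssq, gsp, msrp and nspd that met the same thresholds, the highest ratio was 3.25, so that the cut itself sets the 15 apart from them. The label of sperm content is therefore not used for these 15 here, and with the cuticle genes above it is not shown to be particular to the other 81.

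The 3 members with the highest ife-1 sums were described as major sperm proteins. F58A6.9 gave sums of 6262, 10072 and 6582 in the ife-1 cultures, against 25667, 6646 and 20246 in the wild-type cultures. ZK546.3, a pseudogene, gave 4720, 4862 and 5149 in the ife-1 cultures, against 18309, 4049 and 20132 in the wild-type cultures. ZK1248.4 gave 4001, 5417 and 3299 in the ife-1 cultures, against 17450, 3999 and 14321 in the wild-type cultures. In these 3 and in ZK1248.17 the ife-1 mean was 1.06 to 1.21 times wild-type culture 2, which lay within the range of 1.09 to 1.22 times for the 9 msp genes or just below it. All 4 are read by probe sets that may bind other transcripts, and the msp genes are near copies of each other, so their signal cannot be assigned to these genes alone. C36H8.1, the fifth of this description, is read by a probe set without that suffix. It gave 566.4, 786.2 and 551.4 in the ife-1 cultures, against 1665, 341.0 and 1892 in the wild-type cultures.

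Of the other bright members, R09E10.6 gave 1867, 2219 and 1698 in the ife-1 cultures, against 8110, 1558 and 8083 in the wild-type cultures. T16A9.5 gave 1739, 2190 and 1766 in the ife-1 cultures, against 5764, 997.4 and 4702 in the wild-type cultures. Y47D7A.15 gave 1629, 1712 and 1843 in the ife-1 cultures, against 6743, 1856 and 7872 in the wild-type cultures. All ife-1 cultures lay above wild-type culture 2 in R09E10.6 and T16A9.5 and below it in Y47D7A.15. Y38C1AA.7 and R07E5.15 had ife-1 means of 1574 ± 503 and 1425 ± 143 (SD, n = 3), which were 1.13 and 1.79 times wild-type culture 2.

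The kinases and phosphatases were named from the workbook's descriptions after their values were seen. Protein kinases transfer phosphate to other proteins, which phosphatases remove. The ife-1 mean of the kinase probe sets was 1.39 times wild-type culture 2 in one of the W02B12.12 probe sets, 1.44 in C09D4.3, 1.49 in the other W02B12.12 probe set, 1.81 in K11C4.1, 2.29 in F09C12.8, 3.09 in C35E7.10 and 3.60 in C27D8.1. C27D8.1 gave 870.0, 906.9 and 618.1 in the ife-1 cultures, against 1827, 221.7 and 1907 in the wild-type cultures. The serine-threonine phosphatase ZK938.1 gave 379.5, 419.4 and 443.5 in the ife-1 cultures, against 1337, 376.3 and 1779 in the wild-type cultures. The tyrosine phosphatase B0280.17 gave 317.7, 354.9 and 272.5 in the ife-1 cultures, against 1664, 460.5 and 1853 in the wild-type cultures, and was one of the 3 members lower in every ife-1 culture than in any wild-type culture. No kinase or phosphatase was among the 15 probe sets over 4 times, but they are so few that nothing is read from this.

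The 15 probe sets whose ife-1 signal stood far above wild-type culture 2 read C16C8.19, C16C8.9, K12H6.4, K12H6.9, ZK1290.11, C48B4.12, K03D3.5, F09C6.10, Y51A2D.8 (by 2 probe sets), F56C3.8, C14F11.7, F18E9.7, T10B10.9 and F07G6.8. Their median sums were 661.6, 768.6 and 614.0 in the ife-1 cultures, against 1942, 67.3 and 1795 in the wild-type cultures. The remaining 81 had 566.4, 735.6 and 560.1 in the ife-1 cultures, against 1808, 379.0 and 1892 in the wild-type cultures. The gap in wild-type culture 2 is built into the division, which used that culture. K12H6.4 gave 599.1, 754.7 and 614.0 in the ife-1 cultures, against 2016, 33.4 and 1666 in the wild-type cultures. Y51A2D.8, described as a cysteine protease, gave 627.7, 674.4 and 450.3 in the ife-1 cultures by 1 of its probe sets, against 1348, 38.9 and 1001 in the wild-type cultures.

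**Figure D3:**
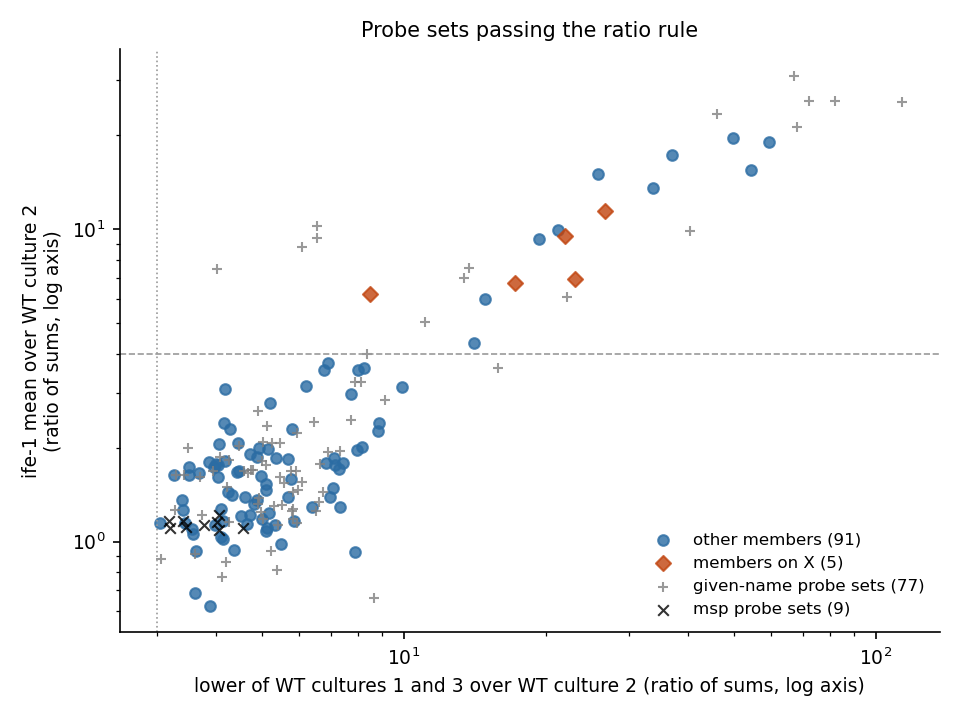
Ratio of the ife-1 mean to wild-type culture 2 against the ratio of the lower of wild-type cultures 1 and 3 to culture 2 (both log axes) for the 96 members and 86 given-name probe sets under the same thresholds; both ratios share the wild-type culture 2 value. The dashed line marks 4 times; the msp probe sets lie at 1.09 to 1.22 times, and the 5 members on the X chromosome lie above the line.

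The deposited table had been filtered on detection, and in each of its 3 blocks of 4 arrays every probe set had at least 2 present calls. A transcript near 0 in both fractions of a wild-type culture thus stayed in the table only if both ife-1 arrays of that block detected it. Of the 15 probe sets, 7 were present on both ife-1 arrays and on neither wild-type array of a block, against 3 of the other 81 and 3.26% of all probe sets. How far the filter set the ife-1 levels of the 15 was not tested.

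Given-name genes under the same thresholds came from sperm families and others. The thresholds were met by 86 given-name probe sets for 81 genes, 2.2% of the 3901 that reached the minimum sum. Their ife-1 mean stood at 1.22 to 2.09 times wild-type culture 2 in 5 ssp genes of the sperm-specific proteins, 2.07 to 2.35 in the 2 gsp genes for phosphatases of sperm, 2.07 to 3.25 in 3 ssq genes, 1.18 to 2.00 in 6 msrp genes and 0.660 to 1.94 in 5 nspd genes. The 5 col genes ran from 0.772 to 1.64 times, rol-1 stood at 0.884 times, and 4 of the 9 clec probe sets ran from 1.54 to 3.99 times. The 15 given-name probe sets above 4 times were for 12 genes, and none of the ssp, gsp, ssq, msrp, nspd, msp or col genes was among them. They were 5 probe sets of clec genes, which encode C-type lectins, 3 of the lysozyme gene ilys-5, 2 of scl genes, 2 of fipr genes and those of try-8, sysm-1 and srlf-18. As an example, fipr-16 gave 1215, 1489 and 1292 in the ife-1 cultures, against 4122, 42.9 and 2872 in the wild-type cultures.

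The members were spread unevenly over the chromosomes. Of the 95 with a known chromosome, 23 lay on I, 26 on II, 8 on III, 23 on IV, 10 on V and 5 on X. The X chromosome held 5.26% of the members, against 11.2% of the 1343 located sequence-name probe sets that reached the minimum sum. All 5 of the X-linked members, F56C3.8, C14F11.7, F18E9.7, T10B10.9 and F07G6.8, were among the 15 probe sets far above wild-type culture 2, and none of the other 80 located members was on X. Chromosome I held 28.75% of those 80 and none of the 15. No test was made of these shares, since the members were chosen by their values.

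**Figure D4:**
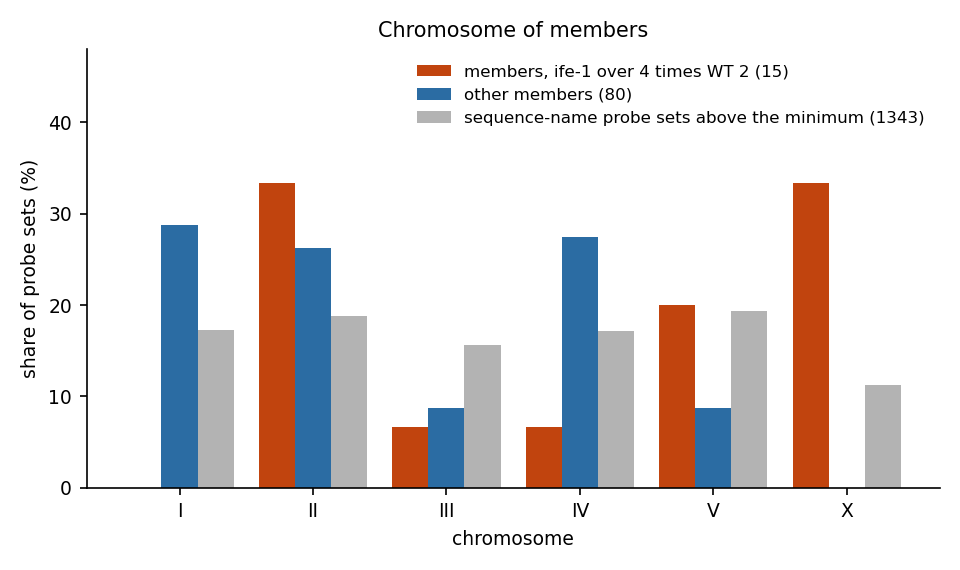
Share of probe sets on each chromosome (%) for the 15 members with ife-1 sums over 4 times wild-type culture 2, the other 80 located members, and the 1343 located sequence-name probe sets that reached the minimum sum. The X chromosome holds 33.3% of the 15, none of the 80 and 11.2% of the sequence-name probe sets.

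Among the X-linked members, F56C3.8 gave 1749, 1747 and 1531 in the ife-1 cultures, against 4318, 270.6 and 2294 in the wild-type cultures. F07G6.8 gave 661.6, 826.0 and 824.1 in the ife-1 cultures, against 1858, 67.3 and 1795 in the wild-type cultures. Both had every ife-1 culture between wild-type culture 2 and the other 2 wild-type cultures, as did the rest of the 15. F18E9.7 was the weakest, with 297.4, 491.6 and 262.9 in the ife-1 cultures, against 1241, 50.5 and 1162 in the wild-type cultures.

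Some members were neighbours, which is given as a description with no test. By the order of protein-coding genes in RefSeq, 3 pairs of the 90 protein-coding member genes located were adjacent, K12H6.4 with K12H6.9 on chromosome II, C33F10.11 with C33F10.1 on II, and Y57G11A.2 with T27E7.1 on IV. The first pair lay far above wild-type culture 2 in the ife-1 cultures and the other pairs did not.

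The distribution between the fractions was tested next. The rule used no ife-1 array and, in wild type, only the sum of the fractions. The polysomal share, P over P + NP of quantile-normalized signals, had member medians of 47.6, 45.4 and 46.2% in the ife-1 cultures, against 45.6, 48.4 and 48.4% in the wild-type cultures. In ife-1 worms, log2(P/NP) was above 0 in 19 members and below 0 in 32 by limma with Benjamini-Hochberg adjustment over all probe sets at a threshold of 0.05, and 45 did not pass. Of all probe sets, 22.8% passed as polysomal and 26.2% as nonpolysomal. The members' counts were 27 and 24 with signals as deposited, and 12 and 19 without set 1 or without ife-1 culture 2. They were 0 and 2 with the fractions unpaired, a fit that pools the spread between cultures the rule required to differ. Over all probe sets the shares were 28.4% and 22.2% with signals as deposited, so that the turn in that split was not particular to the members. These shares were 14.9% and 15.5% without set 1, and 16.6% and 18.5% without ife-1 culture 2. In wild-type worms 24 members passed as polysomal and 30 as nonpolysomal, against 26.6% and 29.3% of all probe sets. The members' median log2(P/NP) was -0.22 in ife-1 and -0.13 in wild type, against -0.06 and -0.04 over all probe sets. In both genotypes 36 members passed in the same direction, a number without a matching count over all probe sets, so nothing is read from it. ZK1290.11 and Y37E11AL.2 passed in opposite directions in the genotypes.

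The nonpolysomal end of the members was led by ZK858.2. Its polysomal share was 9.1, 10.0 and 2.7% in the ife-1 cultures, against 10.4, 11.4 and 7.7% in the wild-type cultures. No polysomal ife-1 array gave a present call for it, so that its ife-1 shares rest on undetected P signals. Its ife-1 NP signal was at least 9.64-fold higher than P. The limma adjusted p of 0.000153 is that of the measured signals and not of this bound. C50E10.1 followed with 23.5 ± 4.8% in ife-1 and 13.5 ± 4.7% in wild type, and C33F10.1 with 25.8 ± 5.2% in ife-1 and 18.8 ± 3.1% in wild type (SD, n = 3 each). The phosphatase ZK938.1 had 27.1 ± 2.5% in ife-1 and 18.9 ± 1.6% in wild type, and its log2(P/NP) of -1.43 in ife-1 had an adjusted p of 0.000211 in limma. T23G11.1 had 27.7 ± 2.4% in ife-1 and 33.2 ± 9.2% in wild type (SD, n = 3 each). For each of these 5 genes P fell below NP in both genotypes by the test.

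The polysomal end was made up of genes from the 15. F09C6.10 had shares of 82.5, 91.7 and 89.1% in the ife-1 cultures, against 63.3, 67.7 and 62.4% in the wild-type cultures. Its log2(P/NP) in ife-1 was 2.92 (limma adjusted p = 0.000119). Y51A2D.8 had 86.4 ± 2.1% in ife-1 and 85.6 ± 13.8% in wild type by one probe set, and 86.2 ± 3.1% in ife-1 and 74.9 ± 24.6% in wild type by the other (SD, n = 3 each). K12H6.4 had 85.4 ± 2.6% in ife-1 and 87.3 ± 3.5% in wild type, and its neighbour K12H6.9 had 80.4 ± 5.2% in ife-1 and 76.1 ± 12.4% in wild type. In wild-type culture 2 the shares of Y51A2D.8 were 69.7 and 46.5% and that of K12H6.9 was 61.8%, lower than in both other wild-type cultures, at sums of 38.9, 79.2 and 91.5 signal units.

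Read over the groups divided at 4 times, 11 of the 15 probe sets passed as polysomal and 0 as nonpolysomal in ife-1 by limma, with a median log2(P/NP) of 1.14. The other 81 gave 8 as polysomal and 32 as nonpolysomal, beside 22.8% and 26.2% of all probe sets. In wild type the 15 gave 7 and 2, and the 81 gave 17 and 28, beside 26.6% and 29.3% of all probe sets. Median shares of the 15 were 68.3, 72.4 and 70.7% in the ife-1 cultures, against 60.9, 45.9 and 61.1% in the wild-type cultures. The 45.9% rests on low signals, since the median sum of the 15 in wild-type culture 2 was 67.3. Of the 15, 12 had present calls on only 2 of 3 wild-type NP arrays, and 7 on only 2 of 3 wild-type P arrays. Median shares of the 81 were 44.2, 44.2 and 45.0% in the ife-1 cultures, against 43.9, 48.9 and 46.6% in the wild-type cultures. These counts describe groups divided by the ife-1 and wild-type sums of the same arrays.

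**Figure D5:**
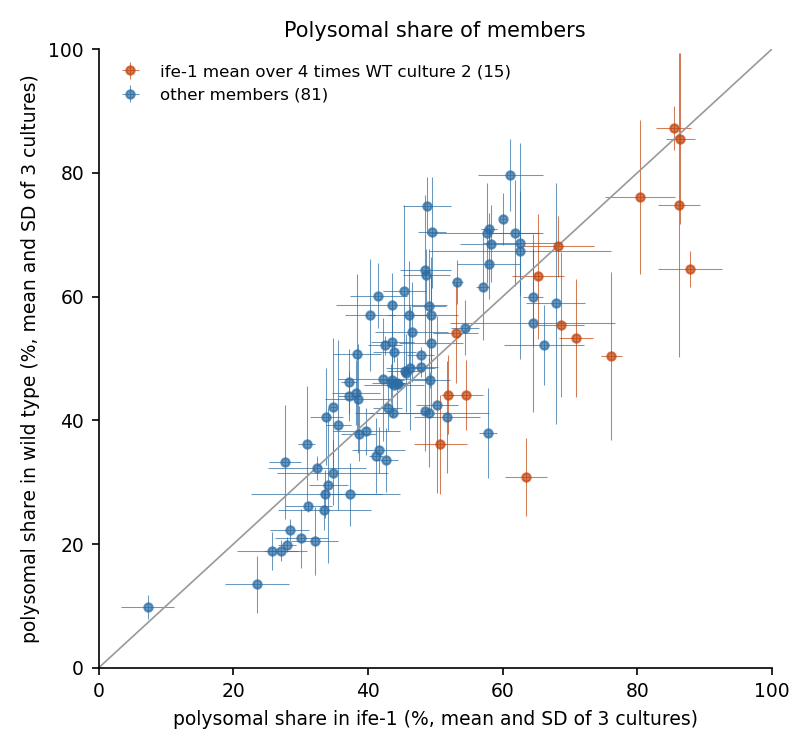
Mean polysomal share of each member in wild type against that in ife-1 (%, bars are SD of 3 cultures); the line marks equal shares. The 15 probe sets with ife-1 sums over 4 times wild-type culture 2 all have ife-1 shares above 50%, and the other 81 spread from 7.3% upward.

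The kinases lay on both sides in ife-1 worms. C27D8.1 and C35E7.10 passed as polysomal, with log2(P/NP) of 0.75 and 0.86 (limma adjusted p = 0.0246 and 0.00558). F09C12.8 and 1 of the 2 probe sets of W02B12.12 passed as nonpolysomal, with -0.49 and -0.68 (limma adjusted p = 0.0307 and 0.0275). Both phosphatases passed as nonpolysomal, and C09D4.3, K11C4.1 and the second W02B12.12 probe set did not pass. Of all probe sets, 22.8% passed as polysomal and 26.2% as nonpolysomal in ife-1. With so few probe sets per description, nothing is read from their counts. Among the 5 described as major sperm proteins, ZK1248.4, ZK1248.17 and C36H8.1 passed as nonpolysomal in ife-1, with log2(P/NP) of -0.43, -0.57 and -0.51 (limma adjusted p = 0.0286, 0.0497 and 0.0327), and the others did not pass.

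Whether loss of IFE-1 changed the polysomal association of members was the study's main comparison. By limma's test of log2(P/NP) in ife-1 minus wild type, 1 member was higher and 0 were lower, against 0.03% and 0.105% of all probe sets. At an unadjusted p under 0.05 there were 16 members higher and 16 lower, against 10.4% and 10.1% of all probe sets. The members' median difference was -0.10, against 0.03 over all probe sets. All ife-1 shares lay above all wild-type shares in 17 members and below them in 20, against 14.8% and 12.4% of all probe sets. With the growth set as a block no member passed, and neither did any other probe set.

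The member that passed was ZK1290.11, a gene on chromosome II without a description. Its polysomal share was 59.9, 64.9 and 65.6% in the ife-1 cultures, against 27.1, 38.2 and 27.4% in the wild-type cultures, so the genotypes did not overlap. The difference in log2(P/NP) was 1.97 ± 0.26 (SE; limma adjusted p = 0.0425), and with the growth set as a block the adjusted p was 0.117. Its sums were 670.9, 632.9 and 593.3 in the ife-1 cultures, against 2790, 40.8 and 2221 in the wild-type cultures, and the wild-type share of 38.2% belongs to the low sum of 40.8. Leaving out any 1 culture or set gave adjusted p-values of 0.0511 to 0.356.

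The next members by p did not pass. F09C6.10 differed by 2.05 ± 0.31 and F26F4.2 by -1.65 ± 0.24 in log2(P/NP) (SE; limma adjusted p = 0.058 for both). F26F4.2 had shares of 46.2, 47.2 and 52.8% in the ife-1 cultures, against 74.9, 70.0 and 79.2% in the wild-type cultures. Those of F56C3.8 were 75.1, 75.5 and 77.96% in the ife-1 cultures, against 59.4, 34.7 and 56.9% in the wild-type cultures. In both of these genes the genotypes did not overlap, in opposite directions. The difference in log2(P/NP) was 1.67 for F56C3.8, 1.18 for Y49F6B.6, -1.10 for Y37E11AL.2, -1.32 for K08C9.2 and -0.87 for F22B5.5 (limma adjusted p = 0.0757 to 0.0971). Both C34D4.3 probe sets gave -0.82, with shares of 58.0 ± 1.2% and 60.1 ± 0.4% in ife-1 and 70.9 ± 2.6% and 72.6 ± 4.3% in wild type (SD, n = 3 each). F32B4.2 was also among the 10 smallest p-values, but no nonpolysomal ife-1 array gave a present call for it and its difference is not given. Its ife-1 P signal was at least 1.58-fold higher than NP. The limma adjusted p of 0.0282 is that of the measured signals and not of this bound.

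The sperm markers of the study gave a reading of the same test. Of 23 major sperm protein genes, 0 passed in ife-1 as polysomal and 1 as nonpolysomal, while 21 passed as polysomal and 0 as nonpolysomal in wild type. Of all probe sets, 22.8% and 26.2% passed in ife-1, and 26.6% and 29.3% in wild type. The msp genes are near copies of each other, so their probe sets are not separate readings. The difference between genotypes in these msp genes had a median of -0.80 and 0 passed in limma. Of 31 other sperm genes, 5 passed as polysomal and 7 as nonpolysomal in ife-1, and 6 and 4 did so in wild type, with a median difference of -0.23 and 0 passing.

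Combined abundance, log2(P + NP) in ife-1 minus wild type, rests on the wild-type sums that chose the members and is given without a reading. The members' median was -0.89, and 0 were called higher and 3 lower by limma, B0280.17, Y47D7A.15 and Y51H7C.13, against 21.1% and 18.5% of all probe sets. Without wild-type culture 2, which the rule required to be low, all 96 were called lower. That count has no matching count over all probe sets, and nothing is read from it.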

How the data were processed

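RNA heavier (P) and lighter (NP) than 80S was measured in 3 cultures each of ife-1(bn127) and wild-type worms. Per the labels, the deposited intensities are raw Affymetrix signals of each probe set, and their values are linear. Software, scaling and the array's genome build: not given in the sources used here. Detection calls, deposited as other columns of 1 or 0, carry no set number and were counted per group, and 36 further per-sample columns and 6 per-set comparison columns were not used. Per the file headers, a detection filter of the authors left 13372 of 22626 probe sets, and 39 controls were removed. Symbols come from the platform annotation, updated through RefSeq (assembly WBcel235), which matched 12595 of 12616 single-gene probe sets.

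Sums are of deposited signals. For tests and shares, signals under 1 were set to 1 (5 values) and quantile-normalized, so values are relative to an array's average mRNA, and sums weight both fractions alike whatever their yield. Limma 3.58.1 (R 4.3.3; lmFit, eBayes without trend) was fitted to log2(P/NP) and log2(P + NP) of the 6 cultures over 13333 probe sets, and was checked on simulated data. Where a group had no present call, the bound sets the bright fraction's mean against the higher, per array, of the dim signal and the lowest signal of probe sets present on all 3 arrays. Tables were read with pandas 2.3.3 and figures drawn with matplotlib 3.10.9 in Python 3.11.15. The number of arrays limits the precision.

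Growth sets pair the cultures by the deposited outline. After subtraction of the genotype means, paired cultures had correlations across probe sets of -0.0323, -0.0634 and 0.0231 for association and -0.114, -0.0532 and 0.131 for abundance. The fit was made without this block.

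The members and lists were chosen with earlier results of these data known. Named members were the 10 with the highest ife-1 sum, the 5 with the largest and 5 with the smallest wild-type ratio and the 3 just outside it, the 5 with the highest and 5 with the lowest ife-1 share, and the 10 with the smallest p for association. Others were named after their values were seen. Alternatives were signals as deposited, median scaling, an offset of 50, probe sets above the median signal, the block, unpaired fractions, leaving out cultures or sets, and other thresholds of the rule. No sequences are printed.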

Additional observations from a re-analysis of the deposited data

Results flagged for a closer look

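ZK1290.11 was marked because its P against NP differed between the genotypes by the test of the difference itself: log2(P/NP) was 0.80 in ife-1 and -1.17 in wild type, a difference of 1.97 in ife-1 minus wild type (limma adjusted p = 0.0425, and 0.0126 to 0.356 over the alternatives). All 3 ife-1 cultures had higher shares than all 3 wild-type cultures. Its sum in wild-type culture 2 was 40.8, against 2790 and 2221 in the other wild-type cultures, and the part of that culture in the difference was not tested beyond leaving it out (adjusted p = 0.0511).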

How the results depend on the processing

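Members were 52 at a ratio of 5, 167 at a minimum sum of 500 and 38 at 2000, and 96 with the platform's own symbols; with normalized sums 95 of the 96 stayed members. In ife-1, 19 members passed as polysomal and 32 as nonpolysomal. These counts were 12 polysomal among probe sets above the median signal, where 50 members remained, 0 and 2 with unpaired fractions, and 12 to 23 and 19 to 36 without 1 culture or set; both lows came without set 1 or ife-1 culture 2, and 20 were nonpolysomal without ife-1 culture 3. In wild type, 24 and 30 became 10 and 17 above the median signal, 1 and 8 unpaired, and 19 to 29 and 21 to 35 without 1 culture or set. The unpaired fit pools the spread of cultures that the rule required to differ. With signals as deposited the ife-1 split was 27 polysomal and 24 nonpolysomal, and with median scaling 21 and 35. Over all probe sets the shares in ife-1 were 28.4% and 22.2% as deposited, and 21.6% and 31.04% with median scaling. They were 16.995% and 18.893% with unpaired fractions, and 14.9 to 25.1% and 15.5 to 28.5% without 1 culture or set. Of all probe sets above the median signal, 30.2% passed as polysomal in ife-1. The array-wide shares thus also moved with the scaling. Nothing particular to the members is read from the splits as deposited and with median scaling. In association, 1 member higher and 0 lower became 2 higher with signals as deposited and with median scaling, 5 and 5 with an offset of 50, and 5 and 2 above the median signal; over all probe sets, 4 higher and 14 lower became 261 and 350 with the offset and 350 and 221 above the median signal. Among members 0 were higher with the growth set as a replicate block and without any 1 culture or set. Over all probe sets these fits also gave 0 higher, and 0 or 1 lower. The block gave 19 and 28 members in ife-1, 23 and 27 in wild type and 3 lower in abundance, and changed no other count by over 1.5 times. Of all probe sets, 21.5% and 24.2% passed with the block in ife-1, and 25.5% and 27.6% in wild type. In abundance, 3 lower became 5 with signals as deposited and 0 to 96 without 1 culture or set, the 96 without set 2 or wild-type culture 2. These abundance counts under alternatives have no matching counts over all probe sets, and nothing is read from them. Of 276 results of single genes under alternatives, 244 kept direction and side of the threshold, 18 fell short of it, 14 newly passed it and 0 reversed. Part of this was fixed in advance, since the genes were named for extreme values. For P against NP in ife-1, the block, the unpaired fit and leaving out a wild-type culture cannot change the estimate. Low signals in wild-type culture 2 limit the shares there.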

Other observations

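Of the given-name genes that met the thresholds, ilys-5 and sysm-1 ran against the members in the ife-1 cultures. ilys-5, which encodes an invertebrate-type lysozyme and lies on X, gave 14678, 6918 and 14636 by one of its 3 probe sets in the ife-1 cultures, against 8412, 1286 and 8464 in the wild-type cultures. Its ife-1 cultures 1 and 3 lay above every wild-type culture, while all 96 members lay below wild-type cultures 1 and 3 in every ife-1 culture. sysm-1 gave 5895, 6475 and 4666 in the ife-1 cultures, against 4174, 757.6 and 3052 in the wild-type cultures, and all its ife-1 cultures lay above all wild-type cultures. Both were singled out after their values were seen.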
